A study of Mus musculus with 10 samples.

Results

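The annexins and galectins of mouse muscle stem cells were followed as 10 genes of 12803 in the deposited table: the annexins Anxa1, Anxa2, Anxa4, Anxa5, Anxa6, Anxa7 and Anxa11 and the galectins Lgals1, Lgals3 and Lgals8. They were selected by gene symbol. All 10 were measured in every library. Muscle stem cells (satellite cells) of young male C57BL/6 mice had been sorted from limb muscle as CD45- CD31- Sca1- VCAM+ cells, with 1 animal per replicate, and no transgene or mutation is named in the labels. The fresh group (n = 3) was taken at 0 h, directly after sorting. The vehicle group (n = 3) was cultured for 24 h with DMSO, and the Tubastatin A group (n = 4) for 24 h with Tubastatin A at 40 µM, a small molecule that blocks HDAC6, an enzyme that removes acetyl groups from tubulin. Both cultured groups were kept in Ham's F-10 medium with 10% horse serum on plates coated with extracellular matrix, so culture and time cannot be told apart in any comparison with fresh cells.

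Annexins are cytosolic proteins that bind phospholipid membranes when calcium rises. Several of them gather at tears of the muscle cell membrane, where they help to reseal it, and others take part in vesicle traffic and secretion. Galectins are lectins that bind beta-galactosides. They are made in the cytosol and leave the cell by a route without a signal peptide. Outside the cell they cross-link glycoproteins. Inside it, galectin-3 and galectin-8 mark endosomes and lysosomes whose membrane has broken and whose inner glycans are exposed.

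Levels are RPKM, reads per kilobase of exon relative to the library size as scaled by the authors, so levels of different genes can be set side by side roughly. The length counts all exons of a gene (903 bases for Lgals1, 5991 for Anxa7). A gene read from shorter isoforms therefore appears lower beside other genes. Differences are of log2(RPKM + 1), which understates changes of genes with low levels, and are given with their standard error (SE) and the p-value of limma's moderated test, adjusted by the Benjamini-Hochberg method over all 12803 genes. Genes with an adjusted p under 0.05 are called higher or lower. Between 37.6M and 55.3M reads per library fell on genes of the table, and 1 read in a transcript of 1 kb stood for 0.0160 to 0.0339 RPKM. Among the members the fewest reads in a library were 306 for Lgals3 and 334 for Anxa11, and the most were 97894 for Lgals1. The summed level of 10 myofibre markers was 398.3 RPKM in Tubastatin A replicate 2 and 6.34 to 7.49 RPKM in the other Tubastatin A libraries, so the members' differences and the gene counts for Tubastatin A against vehicle are also given without that replicate. The summed level of 11 satellite cell markers was 3517 to 4559 RPKM in fresh, 1854 to 2170 in vehicle and 913.0 to 1019 in Tubastatin A libraries, and all 11 were measured. Scaling each library to the same RPKM sum shifted the log2 RPKM of all genes by the same amount in a comparison. The shift was 0.60 for vehicle against fresh cells, 0.12 for Tubastatin A against vehicle and 0.72 for Tubastatin A against fresh cells. Differences of log2(RPKM + 1) moved less at low levels, as from -1.35 to -0.86 for Anxa11 in vehicle against fresh cells. Small differences from fresh cells depend on the scaling for that reason.

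Lgals1, Lgals3 and Lgals8 each took a different course. Lgals1 was higher in vehicle than in fresh cells and much lower with Tubastatin A than with vehicle. Lgals3 was higher in vehicle than in fresh cells and higher still with Tubastatin A. Lgals8 was lower in vehicle than in fresh cells and higher with Tubastatin A. Lgals1 encodes galectin-1, a secreted dimer that binds laminin and integrin glycans in muscle. Its level was 495.3, 664.4 and 476.9 RPKM in the fresh libraries, 1681, 2302 and 2419 RPKM in the vehicle libraries, and 166.9, 221.9, 220.8 and 191.1 RPKM in the Tubastatin A libraries. No library of any group overlapped with another group, and the vehicle libraries were the highest. By group mean Lgals1 stood at rank 1 of all 12803 genes in vehicle cells, at rank 95 in fresh cells and at rank 161 with Tubastatin A. It rose 3.91-fold from fresh to vehicle (log2 difference 1.96, SE 0.21, adjusted p = 5.8e-06). With Tubastatin A it was 10.7-fold lower than with vehicle (log2 difference -3.40, SE 0.20, adjusted p = 6.3e-08), and 2.73-fold lower than in fresh cells (log2 difference -1.44, SE 0.20, adjusted p = 5.2e-05). Without Tubastatin A replicate 2 the difference from vehicle was -3.45.

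Lgals3 encodes galectin-3, the galectin with a self-associating tail. It was among the least abundant members in fresh cells, with 4.19, 7.22 and 7.05 RPKM. Vehicle libraries held 32.5, 32.9 and 24.9 RPKM, and Tubastatin A libraries held 73.8, 77.4, 72.5 and 74.9 RPKM. The groups stood apart in every comparison, in the order fresh, vehicle, Tubastatin A. Lgals3 was 4.90-fold higher in vehicle than in fresh cells (log2 difference 2.14, SE 0.17, adjusted p = 4.9e-07). It was 2.48-fold higher with Tubastatin A than with vehicle (log2 difference 1.29, SE 0.16, adjusted p = 3.1e-05). Against fresh cells the Tubastatin A level was 12.1-fold higher (log2 difference 3.43, SE 0.16, adjusted p = 7.3e-09), and the rank of Lgals3 by group mean went from 6178 to 614. Galectin-3 is also abundant in macrophages. Of 12 immune markers 5 were measured, and their summed level was 12.1 to 24.6 RPKM in fresh, 0.763 to 0.978 in vehicle and 2.57 to 4.08 in Tubastatin A libraries. Lyz2, a macrophage lysozyme, was at 4.17, 0.0144 and 0.107 RPKM by group mean in the same order. The part of such cells in the level of Lgals3 was not tested.

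Lgals8 encodes galectin-8, which has a pair of sugar-binding domains. It was measured at 19.5, 19.3 and 22.5 RPKM in fresh, 14.2, 14.0 and 14.9 RPKM in vehicle, and 34.0, 32.2, 30.6 and 34.0 RPKM in Tubastatin A libraries. The groups did not overlap. Lgals8 rose 2.28-fold from vehicle to Tubastatin A (log2 difference 1.14, SE 0.10, adjusted p = 1.3e-06). It was lower in vehicle than in fresh cells by the authors' scaling (log2 difference -0.48, SE 0.10, adjusted p = 0.0013), but with libraries scaled to equal sums the difference was 0.086 (adjusted p = 0.48). Lgals8 overlaps Heatr1 on the opposite strand, and because use of strand is not stated in the sources used here, reads of both may not be separable. The same limit holds for Anxa1, Anxa2, Anxa4 and Anxa11. Each overlaps an opposite-strand lincRNA or antisense gene that is absent from the deposited table.

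**Figure D1:**
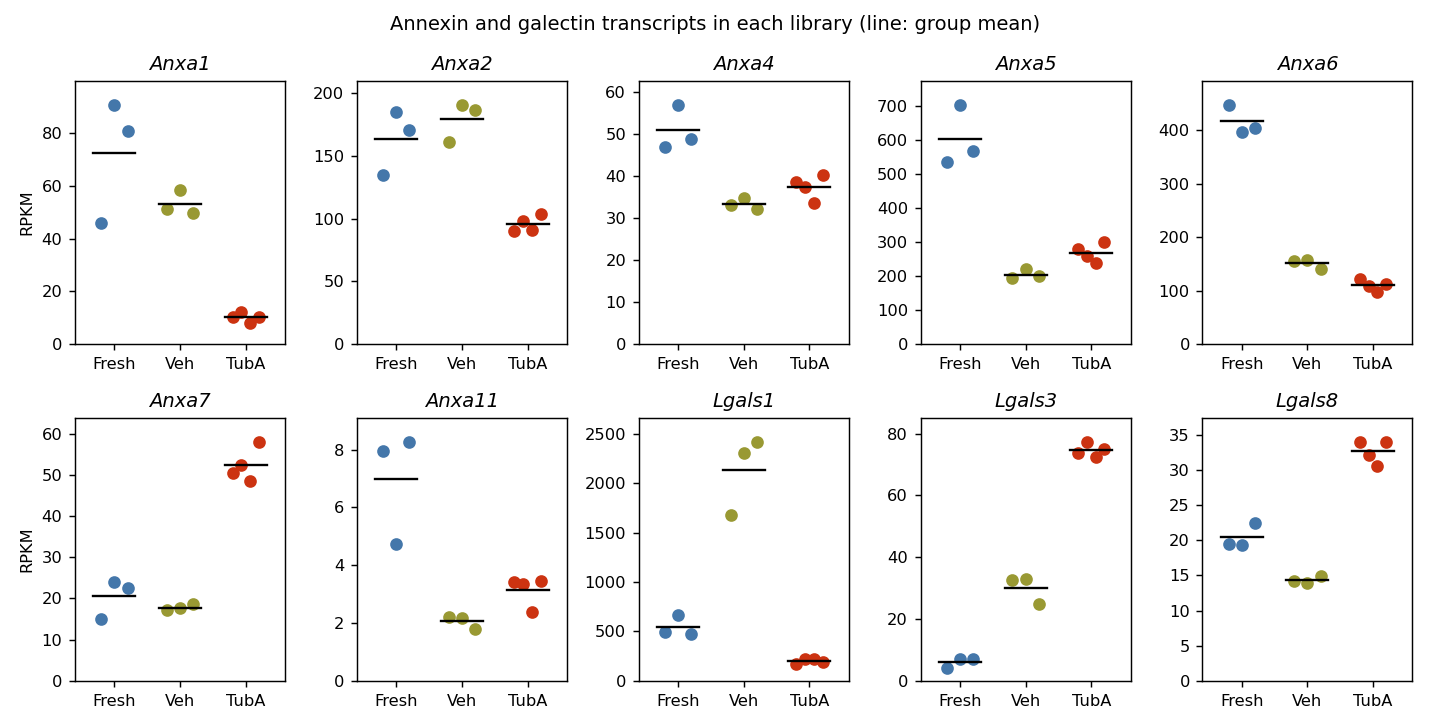
Each panel plots the RPKM (linear axis from 0) of 1 gene in the fresh, vehicle (Veh) and Tubastatin A (TubA) libraries; points are libraries and lines are group means. Lgals1 peaks in the vehicle libraries (1681 to 2419 RPKM), Lgals3 is highest in the Tubastatin A libraries (72.5 to 77.4 RPKM), and Anxa1 is lowest there (8.21 to 12.3 RPKM).

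Ratios of 2 genes within a library do not depend on how libraries are scaled. Lgals1 over Lgals3 was 118.3, 92.1 and 67.6 in fresh, 51.6, 69.9 and 97.3 in vehicle, and 2.26, 2.87, 3.04 and 2.55 in Tubastatin A libraries. Fresh and vehicle ratios overlapped, while every Tubastatin A ratio was below all others. An exact two-sided permutation test of the log2 ratio gave p = 0.0571 for Tubastatin A against vehicle. That is the smallest that 4 against 3 libraries allow, with an adjusted p of 0.098 over 12 such tests. Lgals1 and Lgals3 each separated these groups, in opposite directions, so this p was fixed in advance and adds no support. Of the summed RPKM of the 3 galectins, Lgals1 made up 94.2 to 96.2% in fresh, 97.3 to 98.4% in vehicle and 60.7 to 68.2% in Tubastatin A libraries. Lgals3 and Lgals8 made up 22.4 to 26.9% and 9.45 to 12.4% with Tubastatin A, and Lgals8 only 0.594 to 0.819% with vehicle. The galectin sum itself was 506.5 to 690.9 RPKM in fresh, 1728 to 2459 in vehicle and 274.8 to 331.5 RPKM in Tubastatin A libraries.

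**Figure D2:**
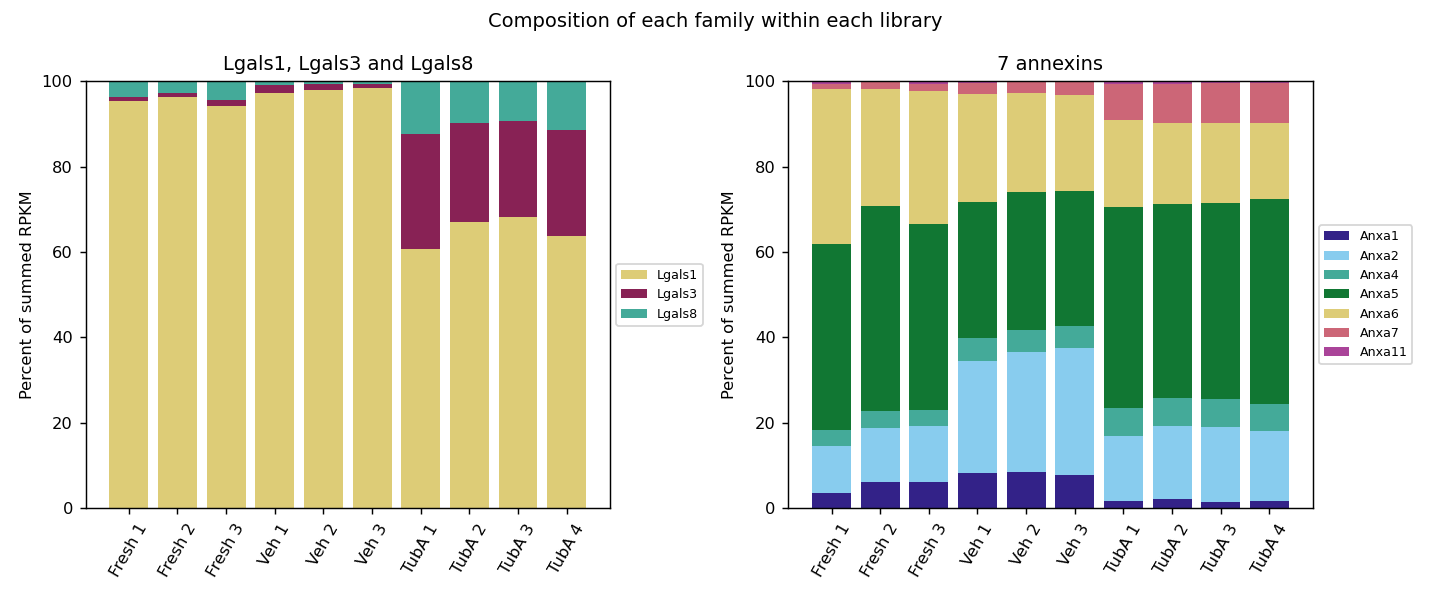
Stacked bars give the percentage of the summed RPKM (vertical axis) that each gene takes within each library (horizontal axis), for the 3 galectins at left and the 7 annexins at right. Lgals1 takes 97.3 to 98.4% of the galectin sum in vehicle and 60.7 to 68.2% in Tubastatin A libraries, where Lgals3 takes 22.4 to 26.9%.

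Of the annexins, Anxa1 and Anxa2 did not pass the test between fresh and vehicle cells on the authors' scale and were lower with Tubastatin A than with vehicle, whereas Anxa7 was higher. Anxa1 encodes annexin A1, a calcium-dependent regulator of phospholipase A2 and of inflammation. It was measured at 45.8, 90.6 and 80.9 RPKM in fresh, 51.2, 58.2 and 49.8 RPKM in vehicle, and 10.4, 12.3, 8.21 and 10.3 RPKM in Tubastatin A libraries. The fresh and vehicle libraries overlapped, and all Tubastatin A libraries were below them. Anxa1 fell 5.15-fold from vehicle to Tubastatin A (log2 difference -2.27, SE 0.21, adjusted p = 2.4e-06). Between fresh and vehicle the difference was -0.39 (SE 0.22, adjusted p = 0.14), but without fresh replicate 1 it was -0.68 (adjusted p = 0.0018), and with equal sums it was 0.21.

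Anxa2 encodes annexin A2, which forms a tetramer with S100a10 at the plasma membrane. Its levels were 135.1, 184.9 and 170.7 RPKM in fresh, 161.3, 190.7 and 187.0 RPKM in vehicle, and 90.0, 97.9, 90.9 and 103.6 RPKM in Tubastatin A libraries. As with Anxa1, fresh and vehicle overlapped and Tubastatin A lay below both. Anxa2 was 1.88-fold lower with Tubastatin A than with vehicle (log2 difference -0.90, SE 0.13, adjusted p = 0.00013). Against fresh cells the difference was -0.76 (adjusted p = 0.00037), but -0.04 with equal sums. Between vehicle and fresh cells it was 0.14 (SE 0.14, adjusted p = 0.40), but 0.74 with equal sums, where Anxa2 was called higher in vehicle (adjusted p = 0.00012).

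Anxa7 encodes annexin A7, also called synexin, which promotes membrane fusion and vesicle release. It was at 15.1, 24.1 and 22.5 RPKM in fresh, 17.1, 17.6 and 18.7 RPKM in vehicle, and 50.5, 52.3, 48.5 and 58.0 RPKM in Tubastatin A libraries. Fresh and vehicle overlapped, and all Tubastatin A libraries were above both. Anxa7 rose 2.94-fold from vehicle (log2 difference 1.50, SE 0.15, adjusted p = 3.9e-06) and 2.54-fold from fresh (log2 difference 1.33, SE 0.15, adjusted p = 7.8e-06). The vehicle and fresh groups differed by -0.17 (adjusted p = 0.34), by -0.37 without fresh replicate 1 (adjusted p = 0.0094) and by 0.40 with equal sums (adjusted p = 0.020). Anxa2 over Anxa7 within a library was 8.94, 7.67 and 7.57 in fresh, 9.44, 10.8 and 9.99 in vehicle, and 1.78, 1.87, 1.87 and 1.79 with Tubastatin A. The exact permutation test of that ratio between Tubastatin A and vehicle gave p = 0.0571, again the smallest possible. That outcome was fixed too, since Anxa2 and Anxa7 each separated these groups in opposite directions.

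The 250 bases before the start site are printed for 4 members that moved in opposite directions with Tubastatin A: Anxa1 and Anxa2 were lower, Anxa7 and Lgals3 higher. RefSeq (GRCm38.p6) matched 8 of the 10 members; Lgals1 and Anxa6 had no match. Capitals mark matches, on either strand, to CACGTG (an E-box), TGANTCA (the AP-1 site), GGGCGG (a GC-box) and TATAAA (the TATA-box); no pattern contains another. Sequences run 5' to 3' on the strand of the gene and end at the base before the start.
Anxa1, chr19:20390672-20390921, minus strand: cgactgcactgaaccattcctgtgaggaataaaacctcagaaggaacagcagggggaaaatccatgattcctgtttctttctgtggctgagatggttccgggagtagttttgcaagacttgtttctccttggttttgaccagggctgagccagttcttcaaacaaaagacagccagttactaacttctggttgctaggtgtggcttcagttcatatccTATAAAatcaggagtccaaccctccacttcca
Anxa2, chr9:69453433-69453682, plus strand: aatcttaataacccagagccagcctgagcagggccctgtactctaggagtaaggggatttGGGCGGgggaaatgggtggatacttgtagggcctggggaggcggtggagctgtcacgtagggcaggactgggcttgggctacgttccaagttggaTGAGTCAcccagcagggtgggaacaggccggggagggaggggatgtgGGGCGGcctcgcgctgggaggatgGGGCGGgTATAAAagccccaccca
Anxa7, chr14:20479942-20480191, minus strand: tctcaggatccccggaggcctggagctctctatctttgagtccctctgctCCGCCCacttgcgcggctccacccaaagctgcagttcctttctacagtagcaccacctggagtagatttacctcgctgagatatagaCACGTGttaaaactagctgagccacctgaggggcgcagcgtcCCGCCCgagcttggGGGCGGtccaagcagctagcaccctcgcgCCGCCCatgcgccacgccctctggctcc
Lgals3, chr14:47373610-47373859, plus strand: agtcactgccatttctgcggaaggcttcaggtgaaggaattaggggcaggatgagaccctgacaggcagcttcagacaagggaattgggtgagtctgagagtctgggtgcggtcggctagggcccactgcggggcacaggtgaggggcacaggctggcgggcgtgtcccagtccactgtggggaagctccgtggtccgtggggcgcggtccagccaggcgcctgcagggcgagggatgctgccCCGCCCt
The windows of Anxa1 and Anxa2 each held a TATAAA, which began 32 and 17 bases before the start. Lgals1 and Anxa6, also lower with Tubastatin A, had no window. Of 32851 promoter windows of this length, 12.4% held one. Anxa2 also held an AP-1 match 95 bases before the start and 3 GC-boxes. In the window printed, Anxa7 held 4 GC-boxes and a CACGTG that began 113 bases before the start. RefSeq gives a second Anxa7 window (chr14:20480134-20480383), which ends at the GENCODE gene start and held no CACGTG and 1 GC-box. Lgals3 held 1 GC-box. Among all windows 32.7% held GGGCGG, 6.75% TGANTCA and 6.02% CACGTG. These matches describe the letters only, and a link with the direction of change was not tested. The start site of the printed window lies downstream of the GENCODE gene start by 273 bases for Anxa1, 63 for Anxa2, 192 for Anxa7 and 6109 for Lgals3.

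Anxa5 and Anxa6, the most abundant annexins of fresh cells, were lower after culture in both cultured groups. Annexin A5 binds phosphatidylserine and assembles into a lattice at membrane wounds. Anxa5 was at 535.7, 703.0 and 566.9 RPKM in fresh, 194.9, 220.3 and 199.2 RPKM in vehicle, and 279.7, 260.0, 237.4 and 300.7 RPKM in Tubastatin A libraries. The 3 groups did not overlap, and vehicle was the lowest. Anxa5 fell 2.94-fold from fresh to vehicle (log2 difference -1.54, SE 0.16, adjusted p = 4.0e-06). Its higher level with Tubastatin A than with vehicle (log2 difference 0.39, SE 0.15, adjusted p = 0.040) was called with all libraries, but adjusted p was 0.065 to 0.12 without any 1 of vehicle replicates 1, 2 and 3 or Tubastatin A replicates 1, 2 and 4.

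Annexin A6 has a doubled annexin core and forms part of the repair cap of muscle. Anxa6 was at 447.4, 397.7 and 404.5 RPKM in fresh, 154.9, 157.1 and 141.0 RPKM in vehicle, and 121.3, 108.8, 97.7 and 111.8 RPKM in Tubastatin A libraries. It was lower in vehicle than in fresh cells and lower still with Tubastatin A, with no overlap. The log2 difference was -1.46 from fresh to vehicle (SE 0.13, adjusted p = 1.1e-06) and -0.46 from vehicle to Tubastatin A (SE 0.12, adjusted p = 0.0065). Anxa5 over Anxa6 was 1.20 to 1.77 in fresh, 1.26 to 1.41 in vehicle and 2.31 to 2.69 in Tubastatin A libraries. The Tubastatin A ratios were above all others (exact permutation p = 0.0571 against vehicle, the smallest possible). Against vehicle that outcome was fixed, since Anxa5 was higher and Anxa6 lower with Tubastatin A, both without overlap.

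Anxa4 and Anxa11 were lower in vehicle than in fresh cells, and only Anxa11 kept that call under every scaling tried. Anxa4, an annexin of secretory epithelia and vesicle membranes, was at 46.9, 56.8 and 48.8 RPKM in fresh, 33.1, 34.7 and 32.2 RPKM in vehicle, and 38.6, 37.4, 33.6 and 40.2 RPKM in Tubastatin A libraries. The cultured groups overlapped (log2 difference 0.16, SE 0.11, adjusted p = 0.21). Its lower level in vehicle than in fresh cells (log2 difference -0.59, adjusted p = 0.00058) was not seen with equal sums (0.00), and Tubastatin A against fresh turned from -0.43 to 0.28. Anxa11, which tethers RNA granules to lysosomes, was at 7.96, 4.73 and 8.28 RPKM in fresh, 2.20, 2.19 and 1.80 RPKM in vehicle, and 3.43, 3.36, 2.40 and 3.45 RPKM in Tubastatin A libraries. It fell 3.38-fold from fresh to vehicle (log2 difference -1.35, SE 0.19, adjusted p = 4.7e-05). The difference between Tubastatin A and vehicle was 0.43 (SE 0.17, adjusted p = 0.0496). That call was lost at adjusted p of 0.081 to 0.155 without any 1 of vehicle replicates 1, 2 and 3 or Tubastatin A replicates 1, 2 and 4.

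Across all 10 members, 2 were higher and 5 lower in vehicle than in fresh cells, where 67% of all genes were called (32% higher, 35% lower). With Tubastatin A against vehicle, 5 were higher (Anxa5, Anxa7, Anxa11, Lgals3 and Lgals8) and 4 lower (Anxa1, Anxa2, Anxa6 and Lgals1), where 59.3% of all genes were called (29.6% higher, 29.7% lower). Without Tubastatin A replicate 2 these counts were 3 and 4, since Anxa5 (0.41, adjusted p = 0.077) and Anxa11 (0.41, adjusted p = 0.105) were no longer called. The other log2 differences without it were 1.5 for Anxa7, 1.28 for Lgals3, 1.14 for Lgals8, -2.35 for Anxa1, -0.91 for Anxa2, -0.45 for Anxa6, -3.45 for Lgals1 and 0.16 for Anxa4, of which only Anxa4 did not pass the test, as with all libraries. Against fresh cells Tubastatin A gave 3 higher and 7 lower, where 64.9% of all genes were called (29.8% higher, 35.2% lower), and the same counts without replicate 2. The libraries of both groups did not overlap for 7, 9 and 10 members in these comparisons, beside 67.6%, 68.6% and 61.3% of all genes. The median size of the log2 difference was 0.97, 1.02 and 1.24 for the members and 0.61, 0.45 and 0.52 for all genes. Members and all genes were not matched for level. Most members lay above most genes in level, and log2(RPKM + 1) understates changes of genes with low levels. The first and second comparisons share the vehicle libraries, and the first and the third the fresh libraries, so they are not independent. Replicate animals are the unit of every test, and in these bulk samples fewer cells of a type and less RNA per cell cannot be told apart.

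**Figure D3:**
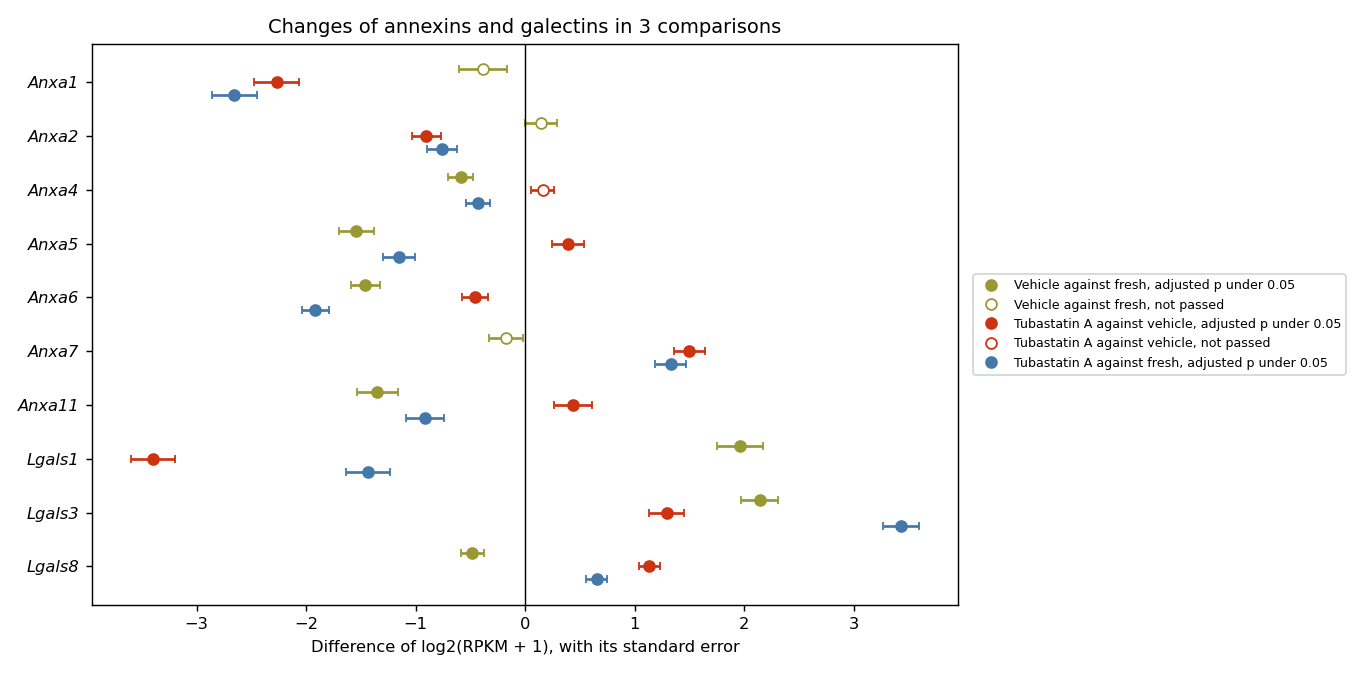
Points give the difference of log2(RPKM + 1) on the horizontal axis for each member in 3 comparisons, with bars of 1 standard error; filled points passed an adjusted p under 0.05 and open points did not. Lgals1 lies at 1.96 for vehicle against fresh and at -3.40 for Tubastatin A against vehicle, whereas Lgals3 lies above 0 in all 3 comparisons.

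The order of levels changed between groups. In fresh cells Anxa5 and Lgals1 were highest, with overlapping libraries, followed by Anxa6, Anxa2, Anxa1, Anxa4, Anxa7, Lgals8, Anxa11 and Lgals3. The neighbours Anxa1 and Anxa4, Anxa7 and Lgals8, and Anxa11 and Lgals3 overlapped. In vehicle cells Lgals1 led, followed by Anxa5, Anxa2, Anxa6, Anxa1, Anxa4, Lgals3, Anxa7, Lgals8 and Anxa11, and only Anxa4 and Lgals3 overlapped. With Tubastatin A the order was Anxa5, Lgals1, Anxa6, Anxa2, Lgals3, Anxa7, Anxa4, Lgals8, Anxa1 and Anxa11, with overlap between Anxa6 and Anxa2 and between Anxa4 and Lgals8. Within the annexin sum, Anxa2 took 10.9 to 13.1% in fresh, 26.2 to 29.7% in vehicle and 15.2 to 17.5% in Tubastatin A libraries. Anxa7 took 1.22 to 1.73%, 2.59 to 2.97% and 8.51 to 9.35% in the same order.

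Of 12 genes on a list of other annexins and galectins, 8 were measured. They include Lgals3bp, which encodes a galectin-3 binding protein and not a galectin. By limma Lgals3bp was lower in vehicle than in fresh cells (log2 difference -0.53, adjusted p = 0.0021). It was also lower with Tubastatin A than with vehicle (log2 difference -0.33, adjusted p = 0.026), and the counts below include it. In vehicle against fresh cells 1 was higher and 5 lower, and with Tubastatin A against vehicle 2 were higher and 3 lower. Of all genes, 67% and 59.3% were called in these comparisons. Lgals9 encodes galectin-9, a galectin with a pair of sugar-binding domains like galectin-8. It was at 30.7, 38.2 and 29.4 RPKM in fresh, 1.49, 1.57 and 1.39 RPKM in vehicle, and 10.7, 11.1, 8.90 and 11.5 RPKM in Tubastatin A libraries, with no overlap. It fell by 3.76 from fresh to vehicle on the log2 scale (SE 0.13, adjusted p = 6.2e-10) and was 2.21 higher with Tubastatin A than with vehicle (SE 0.12, adjusted p = 4.5e-08). Anxa3 was at 7.33 ± 3.77 RPKM in fresh (SD, n = 3), 5.71 ± 2.06 in vehicle (SD, n = 3) and 0.835 ± 0.384 with Tubastatin A (SD, n = 4). Like Anxa1 and Anxa2 it was lower with Tubastatin A than with vehicle (log2 difference -1.85, adjusted p = 0.00013). Anxa9 was also lower (log2 difference -1.29, adjusted p = 6.8e-06), from 2.10 to 0.255 RPKM. Lgals2 stood at the floor that replaces zeros in every vehicle library, so no fold is given.

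S100 proteins are small calcium sensors, and several bind annexins. Of 14 S100 and EF-hand genes, 2 were higher and 6 lower in vehicle than in fresh cells (6 and 3 with equal sums). With Tubastatin A against vehicle 2 were higher and 5 lower. The shares called among all genes were 67% and 59.3%. S100a6 (calcyclin), a partner of Anxa2 and Anxa11, followed a course like that of Lgals1: 24.8, 49.6 and 39.2 RPKM in fresh, 105.9, 157.0 and 171.3 RPKM in vehicle, and 16.5, 20.2, 19.9 and 21.3 RPKM in Tubastatin A libraries. Its log2 difference was 1.93 from fresh to vehicle (SE 0.24, adjusted p = 1.7e-05) and -2.81 from vehicle to Tubastatin A (SE 0.22, adjusted p = 7.6e-07). S100a4, a partner of Anxa2, differed by -2.58 between Tubastatin A and vehicle (adjusted p = 1.5e-06), at 6.49 RPKM in vehicle. S100a10 and S100a11, the partners of Anxa2 and Anxa1, were chosen after their values were seen. S100a10 was at 264 ± 93.0 RPKM in fresh (SD, n = 3), 162 ± 43.5 in vehicle (SD, n = 3) and 150 ± 22.0 with Tubastatin A (SD, n = 4), with a log2 difference of -0.08 between the cultured groups (adjusted p = 0.81). Anxa2 over S100a10 was 0.536 to 0.832 in fresh, 0.922 to 1.39 in vehicle and 0.537 to 0.747 in Tubastatin A libraries. The vehicle ratios were above all others. An exact permutation test of Tubastatin A against vehicle gave p = 0.0571, the smallest possible, with an adjusted p of 0.098. Log2 ratio differences from fresh cells were 0.82 for vehicle and -0.0099 for Tubastatin A, whose ratios overlapped with fresh. S100a11 was higher with Tubastatin A (log2 difference 0.77, adjusted p = 0.035), while Anxa1 was lower. The S100a11 call was lost, at adjusted p of 0.061 to 0.17, without any 1 of vehicle replicates 1 and 2 or Tubastatin A replicates 2, 3 and 4.

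Of 12 plasma membrane repair genes measured of 14 listed, 2 were higher and 6 lower with Tubastatin A than with vehicle. The share of all genes called in that comparison was 59.3%. Cav1, which encodes caveolin-1, was at 339 ± 80.1 RPKM in fresh (SD, n = 3), 137 ± 8.03 in vehicle (SD, n = 3) and 19.1 ± 1.25 with Tubastatin A (SD, n = 4). Its log2 difference between the cultured groups was -2.78 (SE 0.15, adjusted p = 3.4e-08). Myof, which encodes the ferlin myoferlin, rose from 0.519 to 4.81 RPKM after culture with vehicle (log2 difference 1.94, adjusted p = 1.1e-07) and was at 0.661 RPKM with Tubastatin A (log2 difference -1.80 from vehicle, adjusted p = 2.0e-07). Ehd2, a dynamin-like ATPase of caveolae, was also lower with Tubastatin A (log2 difference -1.40, adjusted p = 0.00033). Dysf, which encodes dysferlin, was higher (log2 difference 0.89, adjusted p = 0.00017), at 1.49 RPKM. Of 15 genes of ESCRT-III and its partners, which pinch off damaged membrane, 8 were higher and 4 lower with Tubastatin A than with vehicle, and 7 and 2 without vehicle replicate 3. Chmp2b was higher (log2 difference 1.38, adjusted p = 2.8e-06) and Chmp6 lower (log2 difference -1.11, adjusted p = 3.7e-06). Pdcd6ip (Alix), a partner of ESCRT-III, was higher too (log2 difference 0.64, adjusted p = 0.00081).

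Galectin-3 and galectin-8 act with autophagy receptors and ubiquitin ligases on damaged lysosomes. Of 20 genes on a list for that response, 15 were higher and 2 lower with Tubastatin A than with vehicle. Among all genes 29.6% were higher and 29.7% lower. The median log2 difference was 1.08 beside 0.02 for all genes. The list was chosen with earlier results of these data known, so these values are no independent test of that response. Without Tubastatin A replicate 2 the counts were 14 and 2. In vehicle against fresh cells 4 were higher and 12 lower, with a median of -0.37, but 6 and 6 with equal sums. Against fresh cells, Tubastatin A gave 10 higher and 3 lower, and 16 and 0 with equal sums. On the authors' scale 67% of all genes were called in vehicle against fresh cells and 64.9% in Tubastatin A against fresh cells. Fbxo2 encodes an F-box protein that binds the glycans of damaged lysosomes. It was at 0.306 ± 0.136 RPKM in fresh (SD, n = 3) and 0.254 ± 0.130 in vehicle (SD, n = 3), and 100.2, 77.8, 74.4 and 91.0 RPKM in the Tubastatin A libraries (log2 difference from vehicle 6.11, SE 0.14, adjusted p = 2.7e-10). Sqstm1, which encodes the autophagy receptor p62, was at 1611 RPKM in fresh, 177.4 in vehicle and 1529 with Tubastatin A by group mean. It was lower in vehicle than in fresh cells (log2 difference -3.15, adjusted p = 9.4e-08) and higher with Tubastatin A than with vehicle (log2 difference 3.10, adjusted p = 1.1e-07). Tax1bp1, an autophagy receptor, rose with Tubastatin A (log2 difference 1.79, adjusted p = 1.7e-06). Plaa, a cofactor of the ATPase VCP, went from 10.1 RPKM in fresh to 19.5 in vehicle and 47.2 with Tubastatin A (log2 difference from vehicle 1.23, adjusted p = 2.6e-06). Trim16, which binds galectin-3, was higher in vehicle than in fresh cells (log2 difference 2.28, adjusted p = 5.8e-09), like Lgals3, but differed by -0.22 between the cultured groups (adjusted p = 0.080). Lamtor1, an anchor of mTORC1 on lysosomes, was lower with Tubastatin A than with vehicle (log2 difference -0.89, adjusted p = 4.7e-05).

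**Figure D4:**
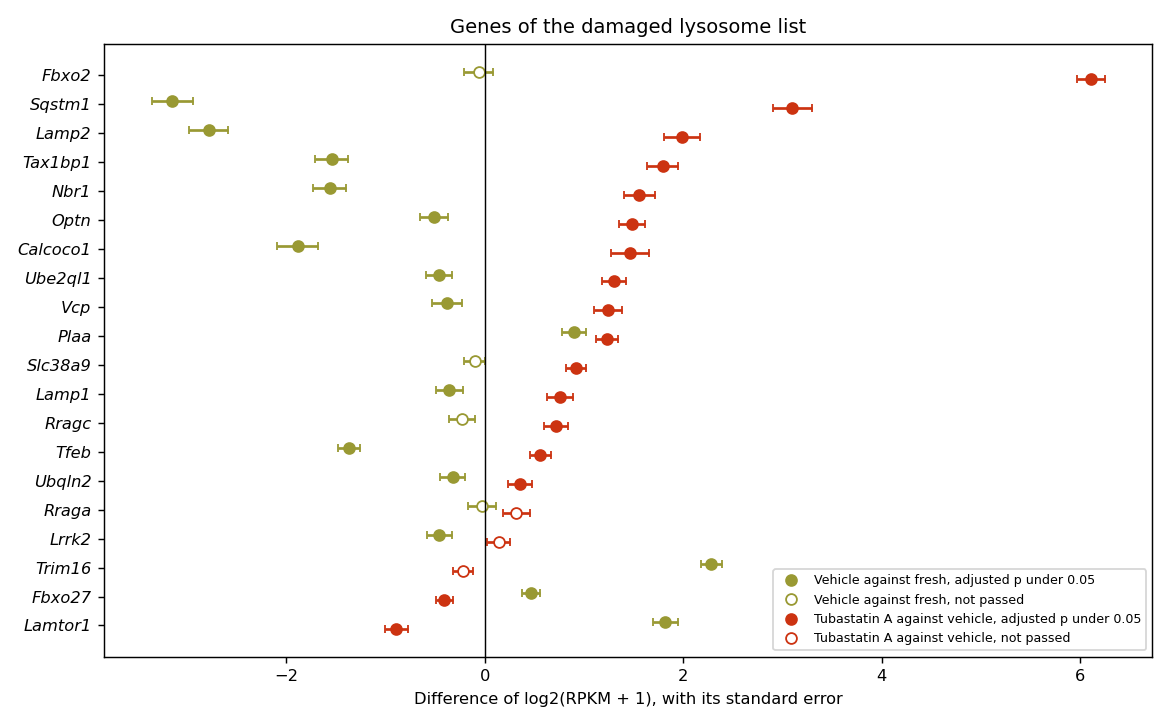
Each row is 1 of the 20 genes of the damaged lysosome list, and points give the difference of log2(RPKM + 1) on the horizontal axis for 2 comparisons, with bars of 1 standard error; filled points passed an adjusted p under 0.05. With Tubastatin A against vehicle 15 genes lie above 0 as filled points, with Fbxo2 at 6.11 and Sqstm1 at 3.10.

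Glycoproteins that galectins bind, and enzymes that branch their glycans, moved in both directions. Of 22 such genes, 5 were higher and 5 lower with Tubastatin A than with vehicle, and 9 and 5 with equal sums. Among all genes 59.3% were called in that comparison on the authors' scale. Mgat5, which adds the branch that galectin-3 binds well, went from 0.803 RPKM in vehicle to 2.10 RPKM with Tubastatin A (log2 difference 0.78, adjusted p = 8.0e-05). Itga3, an integrin chain and galectin ligand, was higher in vehicle than in fresh cells (log2 difference 2.74, adjusted p = 1.6e-08) and lower with Tubastatin A than with vehicle (log2 difference -0.80, adjusted p = 0.00035). Nrp1, a neuropilin bound by galectin-1, was also lower with Tubastatin A (log2 difference -1.88, adjusted p = 6.0e-07). Phosphatidylserine is the lipid that annexin A5 binds. Of 11 genes for its exposure and retrieval, 5 were higher and 1 lower with Tubastatin A than with vehicle. Tmem30a, the partner chain of the flippases, was higher (log2 difference 1.40, adjusted p = 1.1e-05), and so was the scramblase Xkr8 (log2 difference 0.52, adjusted p = 0.0018). Of 6 measured genes for annexin A1 receptors and plasminogen activation, 5 were lower in vehicle than in fresh cells. In that comparison 35% of all genes were lower. Plat, the tissue plasminogen activator that binds annexin A2, was at 43.2 RPKM in fresh, 0.270 in vehicle and 3.57 with Tubastatin A by group mean (log2 difference from fresh to vehicle -5.11, adjusted p = 1.2e-09, and 1.83 from vehicle to Tubastatin A, adjusted p = 5.0e-06).

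The genes with the most similar profile over the 10 libraries were found among 3380 genes by the root mean square difference of centred log2(RPKM + 1). For Lgals1 they were Cks1b (0.26) and Mcm7 (0.29), which encode a subunit of cyclin-dependent kinases and a helicase of DNA replication. For Lgals3 they were Pgd (0.37), of the pentose phosphate pathway, and the proteasome subunit gene Psmd13 (0.45). For Anxa7 they were the proteasome ATPase gene Psmc6 (0.13) and the proton pump gene Atp6v1b2 (0.15). For Anxa1 they were Idh2 (0.32) and Tagln2 (0.33), and for Anxa5 Cd9 (0.11), a tetraspanin, and Atraid (0.11). Such likeness describes these 10 libraries only.

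Counts higher and lower with Tubastatin A than with vehicle were also taken from the fit without Tubastatin A replicate 2. They were 2 and 2 for the other annexins and galectins with Lgals3bp, and 1 and 5 for the S100 and EF-hand genes. For membrane repair they were 2 and 6, and for ESCRT-III 8 and 4. They were 4 and 5 for the glycoprotein and glycan genes, 5 and 1 for phosphatidylserine, and 2 and 1 for annexin A1 receptors and plasminogen activation. Of all 12803 genes 6995 were called in that fit.

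The members lie on several chromosomes of GRCm38 (mm10), all protein coding in GENCODE M21. Lgals1 lies on chr15:78926725-78930465, Lgals3 on chr14:47367751-47386160 and Lgals8 on chr13:12439415-12464944. Anxa1 lies on chr19:20373428-20390944, Anxa2 on chr9:69453620-69491795, Anxa5 on chr3:36448923-36475894 and Anxa6 on chr11:54979108-55033445. Anxa4 lies on chr6:86736840-86793584. Anxa7 (chr14:20455260-20480133), Anxa11 (chr14:25842156-25886804) and Lgals3 share chromosome 14. Their reads come from all exons of each gene, so isoforms are not told apart.

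Markers of other cell types also differed between groups. The summed level of 11 measured fibro-adipogenic progenitor markers was 1808 to 2257 RPKM in fresh, 70.9 to 85.7 in vehicle and 88.2 to 121.6 in Tubastatin A libraries. For 9 endothelial markers it was 45.2 to 54.7, 3.31 to 4.51 and 6.13 to 6.97 RPKM. For 9 pericyte and smooth muscle markers it was 240.3 to 293.8, 177.7 to 242.8 and 12.7 to 63.9 RPKM, of which 63.9 was Tubastatin A replicate 2 and the other Tubastatin A libraries were at 12.7 to 13.6. For 7 tenocyte markers it was 46.8 to 69.1, 66.5 to 78.1 and 5.54 to 12.5 RPKM. The pericyte and tenocyte sums do not describe most genes of their lists. Between Tubastatin A and vehicle, 1 of 9 pericyte markers was higher, 2 lower and 6 not called (median log2 difference 0.015). Of 7 tenocyte markers 2 were higher, 1 lower and 4 not called (median 0.106). In vehicle against fresh cells 1 tenocyte marker was higher and 6 lower (median -1.93). The part of these cells in the levels of Anxa1, Anxa2, Lgals1 and the other members was not tested. The difference of Lgals1 between Tubastatin A and vehicle, -3.40, was as large without the library with high myofibre markers (-3.45).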

How the data were processed

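For each of the 10 libraries, cDNA was made from 5 ng of RNA (SMART-Seq v4), built into a library (NuGEN Ovation) and sequenced in paired reads of 150 bp, per the labels' protocols. The submitters' processing notes name edgeR, STAR, Subread, featureCounts, Trim Galore and mm10, with no version or strand setting. The authors deposited RPKM, with zeros replaced by a floor of each gene. With exon lengths of GENCODE M21, 12202 of 12803 genes (95.3%) gave whole reads in every library within 0.05 reads, and all 10 members did; 608 genes had a value below 1 read. Reads in the table over the scaled library size were 1.39 to 1.41 in fresh and 0.83 to 0.93 in cultured libraries.

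Log2(RPKM + 1) of all genes was fitted with limma 3.58.1 (R 4.3.3), with a variance trend and 1 model for the 3 groups, and was tested on simulated data. Python 3.11.15 computed counts, ratios and exact permutation tests. The alternatives were other pseudocounts, a filter on low levels, other scalings, only the groups compared, a replicate block, no trend, voom on recovered reads, and each library left out. Groups came from the sample titles; the treatment field of the fresh samples also reads vehicle. The members and lists were chosen with earlier results of these data known. Named genes were the members, the other annexins and galectins, up to 3 genes per list and comparison with the lowest p, and the 2 most similar profiles per member.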

Additional observations from a re-analysis of the deposited data

Results flagged for a closer look

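In the Tubastatin A group, the only group with 4 libraries, each named gene was checked for a library far from the others, by its gap to the nearest library over the whole range of the group. Anxa11 had a ratio of 0.921, above Dixon's critical value for 4 libraries, with replicate 3 at 2.40 RPKM and the others at 3.36 to 3.45 RPKM. S100a4 had a ratio of 0.880, with replicate 2 at 0.566 RPKM and the others at 0.0518 to 0.114 RPKM. Chance gives about 1 such flag in 20 genes, and 51 genes were checked.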

How the results depend on the processing

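Of 600 refitted log2 differences of the members under 20 settings, 573 kept their direction and their side of the threshold, 18 were lost, 5 were gained and 4 turned. The turned differences all came from scaling to equal sums: in vehicle against fresh, Anxa1 was 0.21, Anxa7 0.40 and Lgals8 0.086, and in Tubastatin A against fresh Anxa4 was 0.28. Under that scaling, in vehicle against fresh, 4 members were higher and 3 lower, with 6280 genes higher in all against 4096, and in Tubastatin A against fresh 4 members were lower and 7004 genes higher against 3811. This scaling gives fresh libraries, whose RPKM sums are larger, lower values. With each library left out in turn, the members higher with Tubastatin A than with vehicle numbered 3 to 5 and the members lower in vehicle than in fresh 5 to 7. The members called in the other counts stayed at 2 higher in vehicle, 4 lower with Tubastatin A than vehicle, and 3 higher and 7 lower with Tubastatin A than fresh. The labels do not say whether replicate numbers pair the samples, and the correlations did not settle it. Of 9 same-numbered pairs 5 correlated over 0.1 (r from -0.19 to 0.39). Differently numbered pairs had r from -0.52 to 0.47. With the replicate block 3 members were higher with Tubastatin A than with vehicle, and Anxa5 (0.34, adjusted p = 0.105) and Anxa11 (0.40, adjusted p = 0.115) were no longer called by limma; the block called 8503, 7136 and 7888 genes in all. Leaving out genes with a mean under 1 RPKM lowered the count of other annexins and galectins, with Lgals3bp, that fell in vehicle from 5 to 3. With a pseudocount of 5, Anxa11 was 0.21 (adjusted p = 0.108). Low read numbers limit genes under 1 RPKM.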
